A study of Mus musculus with 3 samples.

Results

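The 8 genes described here, Atp1b1, Atp1b3, Atp2a2, Atp2b1, Atp2b2, Atp2b4, Slc8a1 and Slc8a2, encode parts of the pumps and exchangers that move sodium and calcium across neuronal membranes. They were chosen by name, with earlier results of these data known. All 8 were found among the 18121 protein-coding genes of the deposited table. The data were 3 RNA-seq libraries of 1 group, wild-type cortical neurons taken from Swiss-Webster mouse embryos at embryonic day 16 and cultured without any treatment in neurobasal medium with B27 on plates coated with poly-D-lysine. Such cultures hold whatever cells of the dissociated cortex survive plating, and no sorting is described. The study maps TOP2B on the neuronal genome, and these libraries give its expression background. No second group existed, so the comparisons are between genes within a library. Values are TPM, transcripts per 1000000, a share of the library's reads scaled by transcript length. Each gene is represented by the transcript row of its longest protein-coding transcript in GENCODE M21, and rows were never summed because rows of a gene share reads. Nothing in the labels says whether the libraries came from separate cultures, so SDs and p-values cover only library-to-library spread, part of which may be technical.

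Neurons spend much of their energy on ion pumping. The sodium-potassium pump exports sodium and imports potassium, and its beta subunits, encoded by Atp1b genes, fold the catalytic alpha subunit and carry it to the plasma membrane. Calcium that enters during activity is removed in several ways. SERCA pumps, encoded by Atp2a genes, move it into the endoplasmic reticulum, PMCA pumps, encoded by Atp2b genes, expel it with high affinity, and sodium-calcium exchangers of the Slc8a family expel it in bulk, driven by the sodium gradient. The catalytic alpha subunits of the sodium-potassium pump are not among the 8 genes.

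For scale, 1 TPM of a 2-kb transcript corresponded to 103, 86.5 and 91.4 reads in libraries 1, 2 and 3. The rows of the 8 genes held between 2156 and 58374 reads per library. The neuronal identity of the cultures was checked on 8 neuronal markers, all at 10 TPM or more, whose summed level was 1851 to 2083 TPM. All 6 astrocyte markers were also at 10 TPM or more, with a sum of 367 to 455 TPM. Oligodendrocyte-lineage markers summed to 48.8 to 80.3 TPM, microglial markers to 0.955 to 1.75 TPM, endothelial and mural markers to 1.85 to 2.22 TPM, and muscle markers to 3.28 to 4.80 TPM. Tmem119 of microglia and Cldn5 of endothelium were listed at 0 in all 3 libraries. In these bulk samples fewer cells of a type and less RNA per cell cannot be told apart, and the libraries do not show how much of each member's RNA came from neurons or from astrocytes.

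All 8 genes stood above 10 TPM, a level reached by 26.4% of protein-coding genes, and 2 of them, Atp1b1 and Atp2a2, above 100 TPM. Their median of 39.4 TPM compares with 8.10 TPM over the 11150 protein-coding genes with a mean of at least 1 TPM. Because the members were chosen with earlier results of these data known, these contrasts describe the 8 genes only, not their families. The order of mean levels was Atp1b1, Atp2a2, Atp2b1, Slc8a2, Atp2b2, Atp1b3, Atp2b4 and Slc8a1, and it was the same in each of the 3 libraries. The order of Atp1b3 and Atp2b4 depends on the transcript row: Atp1b3 minus Atp2b4 was 0.35 on the log2(TPM + 1) scale, and -0.15 with each gene's highest row. Atp1b1 alone made up 59.1% of the summed mean of the 8 genes. It ranked 27 among the protein-coding genes by mean TPM, while Slc8a1, the lowest, ranked 3010. Of the 7 neighbouring pairs in the order, only Atp2b2 and Atp1b3 had ranges that overlapped between libraries, with a difference of 0.19 ± 0.14 on the log2(TPM + 1) scale. For every neighbouring pair the first gene was above the second in all 3 libraries. An exact permutation of signs (two-sided) returned p = 0.25 for each, also after Benjamini-Hochberg adjustment over the 7 pairs, and 3 libraries cannot give a smaller p. The test therefore separates no neighbours at a threshold of 0.05.

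**Figure D1:**
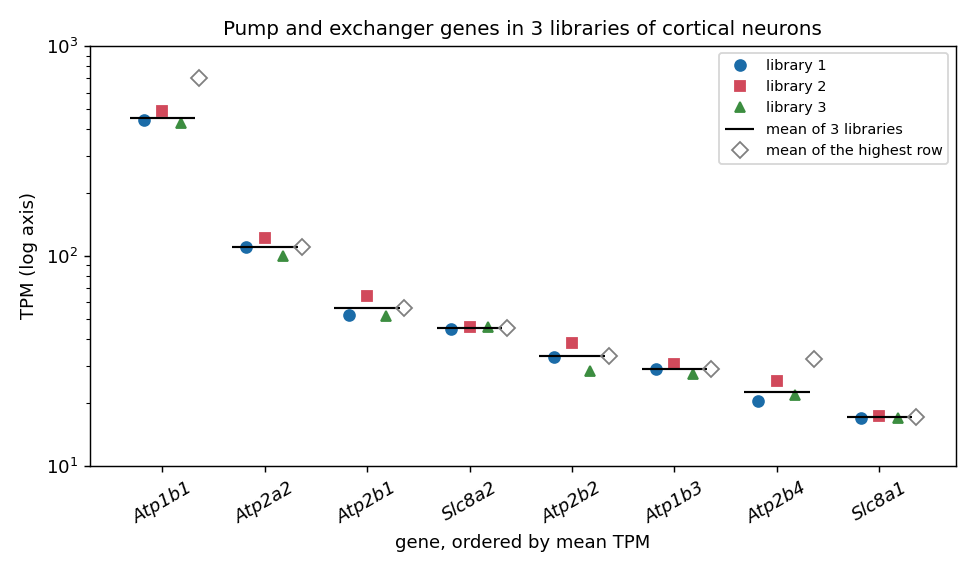
TPM of the 8 genes (log axis) in libraries 1, 2 and 3, with the mean of the longest protein-coding row as a line and the mean of the highest transcript row as an open diamond. Atp1b1 lies near 454 TPM and Slc8a1 near 17.0 TPM, and the diamond departs from the line for Atp1b1 and Atp2b4.

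Atp1b1 encodes the beta1 subunit, the widespread form of neurons. Its level was 441, 491 and 430 TPM in libraries 1, 2 and 3, a mean of 454 ± 32.4 (SD, n = 3). Library 2 was the highest and library 3 the lowest. Atp1b3, which encodes the beta3 subunit, stood at 28.8, 30.5 and 27.4 TPM, a mean of 28.9 ± 1.505, in the same order of libraries. The levels of the beta subunit genes did not overlap: Atp1b1 was 15.7 ± 0.402 times Atp1b3, with a range of 15.3 to 16.1 over the libraries. On the log2(TPM + 1) scale the difference was 3.93 ± 0.04, higher for Atp1b1 in 3 of 3 libraries (exact sign-flip permutation, two-sided, p = 0.25, and 0.25 adjusted over 7 gene pairs). Of the differences between the pairs examined, this was the widest.

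Atp1b1 lies on the minus strand at chr1:164437109-164458355 and Atp1b3 on the minus strand at chr9:96332655-96364442 (mm10). The longest Atp1b1 row of 2580 bases held 58374, 54748 and 50649 reads, or 22.6, 21.2 and 19.6 reads per base. A row of 618 bases that retains an intron held only 6.97, 5.95 and 7.09 reads per base. The highest Atp1b1 row was a non-coding model of 453 bases at 706 ± 29.6 TPM, 1.56 times the longest coding row. Among protein-coding genes of at least 10 TPM, 19.7% had a highest row at least 1.5 times the longest coding row, and Atp1b1 was the 1 member of 8 to do so. At its 3′ end Atp1b1 shares up to 522 exonic bases with a transcript of Nme7 on the opposite strand. That Nme7 row held 532, 469 and 547 reads over its 2536 bases. For Atp1b3, 88.3% of the 50-base words of its transcript occur in no other annotated gene. The remainder are shared with the processed pseudogene Gm1848, whose row stood at 0.0633 ± 0.0425 TPM.

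Atp2a2 encodes SERCA2, the main pump that fills the endoplasmic reticulum with calcium outside fast skeletal muscle. It stood at 109.8, 121 and 99.8 TPM in libraries 1, 2 and 3, a mean of 110.3 ± 10.7 (SD, n = 3). Library 2 was again the highest and library 3 the lowest. Atp2a2 exceeded Atp2b1, the highest PMCA gene, by 0.96 ± 0.08 log2(TPM + 1) units, with 3 of 3 libraries alike (exact sign-flip permutation p = 0.25), which is a ratio of 1.97 ± 0.114. Atp1b1 in turn exceeded Atp2a2 by 2.03 ± 0.05 in 3 of 3 libraries (exact sign-flip permutation p = 0.25). The ranges of neither pair overlapped.

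Atp2a2 is known for alternative 3′ ends. The form with the shorter coding sequence, SERCA2a, is typical of heart and slow muscle, and the longer form, SERCA2b, is found in most cells. The row with the longer coding sequence of 3132 bases (chr5:122456335-122502225, minus strand) held 25279, 23527 and 20472 reads. The row with the shorter coding sequence of 2994 bases held 23100, 21302 and 18270 reads. Their models differ at the 3′ end, by 968 bases found only in the longer form and 791 bases found only in the shorter. The longer form thus had a net surplus of 2179, 2225 and 2202 reads. If each read was counted in every row it touched, at least this many reads lay in the 968 bases alone, because those in the 791 bases alone have been taken off. Spread over the 968 bases the surplus was 2.25, 2.30 and 2.27 reads per base, against 5.35, 4.94 and 4.24 reads per base over the whole of the shorter row. The absolute number of reads on the end of the shorter form cannot be had from these rows.

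The PMCA genes followed in the order Atp2b1, Atp2b2 and Atp2b4. Atp2b1, the housekeeping PMCA, stood at 52.4, 64.6 and 51.7 TPM, a mean of 56.2 ± 7.23. Atp2b2, whose product is a fast PMCA of neurons and hair cells, stood at 32.9, 38.4 and 28.3 TPM, a mean of 33.2 ± 5.05. Atp2b4, also widely expressed, stood at 20.3, 25.3 and 21.8 TPM, a mean of 22.5 ± 2.53. All 3 were highest in library 2, and no range of one overlapped that of another.

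Atp2b1 exceeded Atp2b2 by 0.75 ± 0.09 on the log2(TPM + 1) scale, a ratio of 1.70 ± 0.116. Atp2b1 exceeded Atp2b4 by 1.28 ± 0.07, a ratio of 2.502 ± 0.114. Atp2b2 exceeded Atp2b4 by 0.54 ± 0.16, a ratio of 1.48 ± 0.163. Each difference had the same sign in 3 of 3 libraries, with an exact sign-flip permutation p of 0.25 before and after adjustment. The distances from Atp2b4 depend on the transcript row: with each gene's highest row they were 0.79 for Atp2b1 and 0.04 for Atp2b2 (exact sign-flip permutation p = 0.25 and 0.75).

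**Figure D2:**
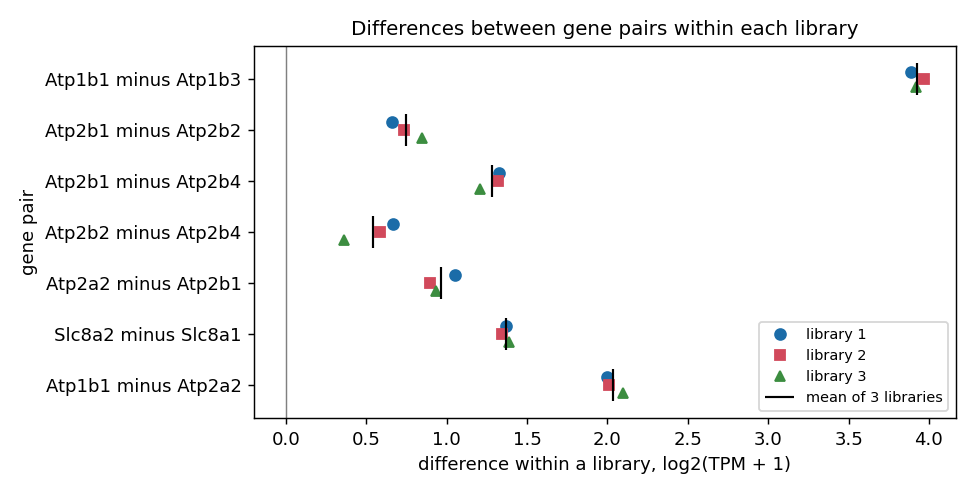
Difference between the genes of each of 7 pairs within libraries 1, 2 and 3, on the log2(TPM + 1) scale, with the mean as a line. All points lie to the right of 0, from the pair Atp2b2 and Atp2b4 at a mean of 0.54 to the pair Atp1b1 and Atp1b3 at 3.93.

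The row of Atp2b4 matters because its longest model (chr1:133699457-133801041, minus strand) covers 11725 bases and includes an extended 3′ end and a distant first exon. Compared with a coding row of 8101 bases that lies wholly within it, it has 3624 more bases. These added 120, 150 and 122 reads in libraries 1, 2 and 3, or 0.0331, 0.0414 and 0.0337 reads per base. The shorter row held 1.49, 1.56 and 1.43 reads per base. The longest row therefore counted nearly the same reads over a longer length, and the shorter row stood at 32.2 ± 3.60 TPM. Atp2b1 (chr10:98915152-99026143, plus strand) had a single row and offers no such check. The 4 Atp2b2 rows of 4586 bases or more (3 coding and 1 listed under nonsense-mediated decay) lay between 31.2 and 33.2 TPM.

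PMCA transcripts are spliced at a place called site C, within the part that encodes the calmodulin-binding region. Skipping the site C exon gives the b form, and including it changes the reading frame and gives the a form with another, shorter tail. The exon is shown for Atp2b4 and Atp2b2 because rows with and without it could be compared. The sequences are GENCODE M21 transcript sequence on mm10, at chr1:133711634-133711822 and chr6:113755217-113755388, both minus strand, 5′ to 3′. Capitals mark the in-frame stop codon with which the a form of Atp2b4 ends. The Atp2b4 sequence stops there, after 189 of the exon's 191 bases, while the Atp2b2 exon is shown whole.
Atp2b4 site C exon up to its stop codon: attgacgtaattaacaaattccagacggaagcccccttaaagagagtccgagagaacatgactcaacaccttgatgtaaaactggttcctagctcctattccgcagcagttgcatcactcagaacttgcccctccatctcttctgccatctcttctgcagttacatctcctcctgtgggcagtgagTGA
Atp2b2 site C exon: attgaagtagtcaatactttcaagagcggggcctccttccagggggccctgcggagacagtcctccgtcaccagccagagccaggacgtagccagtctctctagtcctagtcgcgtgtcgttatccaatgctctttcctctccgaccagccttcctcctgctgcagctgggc

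The whole exons are 191 and 172 bases long, and in a global alignment of the whole exons 100 of 161 aligned bases were identical, or 62.1%. For Atp2b4, the coding row that includes the exon held 12197, 12753 and 11627 reads, and the coding row that lacks only this exon held 12094, 12657 and 11563 reads. The exon thus added 103, 96 and 64 reads, or 0.539, 0.503 and 0.335 reads per base, against 1.49, 1.56 and 1.43 reads per base over the row without it. For Atp2b2 (chr6:113745675-114042026, minus strand), the row under nonsense-mediated decay carries the 172-base exon and a neighbouring exon downstream. It held 59, 49 and 23 more reads than the coding row used for the gene value. For 304 bases more and 11 fewer, this was 0.194, 0.161 and 0.0757 reads per base. That coding row, the longest in M21 at 8877 bases, was 7033 bases as deposited, below another coding row of 7067 bases. The coding row used for the gene value had 1.69, 1.66 and 1.30 reads per base. For both genes the surplus was lowest in library 3. Reads that cross from the exon into a shared exon may be counted in both rows, since no source used here states the rule for such reads. The surplus is thus no measure of how often the exon is included.

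**Figure D3:**
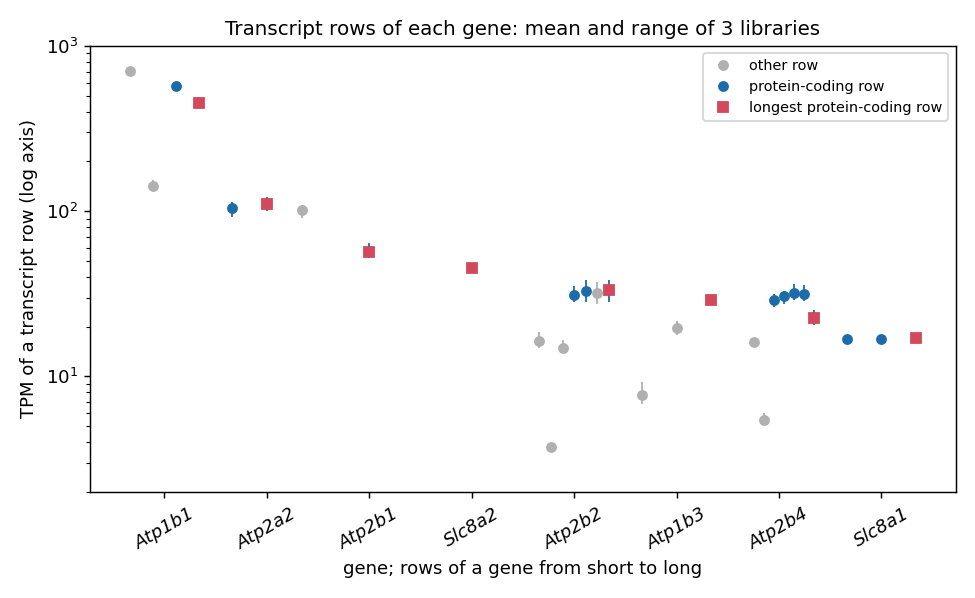
Mean TPM (points, log axis) and range over the 3 libraries (lines) of the transcript rows of each gene, from short to long, with the longest protein-coding row as a square. An Atp2b4 row of 243 bases with 0, 1 and 2 reads is not drawn. The longest Atp2b4 row, at 22.5 TPM, lies below its other long coding rows, and the Atp1b1 rows spread from 143 to 706 TPM.

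Slc8a2 encodes NCX2, the exchanger largely restricted to brain, and Slc8a1 encodes NCX1, the exchanger best known from heart. Slc8a2 (chr7:16130300-16160509, plus strand) stood at 45.1, 45.6 and 45.8 TPM, a mean of 45.5 ± 0.404 (SD, n = 3). Slc8a1 (chr17:81388691-81649607, minus strand) stood at 16.8, 17.3 and 16.9 TPM, a mean of 17.0 ± 0.271. The libraries hardly differed for either gene, and the ranges of the genes lay far apart. Slc8a2 was 2.67 ± 0.0390 times Slc8a1, and the log2(TPM + 1) difference was 1.37 ± 0.02 in 3 of 3 libraries (exact sign-flip permutation p = 0.25). Slc8a2 had 1 row. No 50-base word of either gene's transcript was shared with another annotated gene.

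NCX1 varies through small cassette exons in the part that encodes its large cytoplasmic loop. Of the 3 deposited Slc8a1 rows, 2 are 2913 bases long and differ in a single exon of 21 bases, shown here because it is all that separates them (GENCODE M21 on mm10, chr17:81442203-81442223 and chr17:81441861-81441881, both minus strand, 5′ to 3′).
Slc8a1 exon of the first row: ccctgttgttgaatgagcttg
Slc8a1 exon of the second row: gtgggttgtcaaatgtcttat

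Position by position, 11 of the 21 bases differ between these exons. The first row held 2482, 2156 and 2224 reads and the second 2481, 2156 and 2224 reads. A difference of 1 read in library 1 and none in libraries 2 and 3 means that the deposited rows do not tell these exons apart. The third and longest row in M21, used for the gene value, had 2481, 2156 and 2224 reads on a deposited length of 2877 bases. The rows of 2913 bases hold coding sequence and its stop codon only, and the third row has the same ends, so untranslated ends of Slc8a1 transcripts entered none of the levels. The Slc8a2 row of 4233 bases, with 2745 coding bases in M21, does include untranslated sequence. The ratio of Slc8a2 to Slc8a1 therefore compares unlike parts of transcripts.

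The genes differed in how much they varied between libraries. Of the 8 genes, 7 were highest in library 2, as were 44.0% of protein-coding genes of at least 10 TPM. The exception was Slc8a2, highest in library 3 by a small margin. Library 3 was the lowest for 5 of the 8 genes, as for 45.8% of protein-coding genes of at least 10 TPM. Atp2b2 ranged most, from 85.3% of its own mean in library 3 to 116% in library 2, with a coefficient of variation of 15.2%. Atp2b1 and Atp2b4 followed, at 12.9% and 11.3%. These 3 PMCA genes were the only members above 10%, a value passed by 26.0% of protein-coding genes of at least 10 TPM.

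Slc8a2 and Slc8a1, at 0.889% and 1.59%, were the members below 5%, as were 29.0% of those genes. Reads alone would give a coefficient of variation of 1.05% for Slc8a2 and 2.09% for Slc8a1. On the deposited TPM scale the exchanger genes thus varied no more than counting error over these 3 libraries. For Slc8a2 this depends on the scale. With the chosen rows of nuclear protein-coding genes rescaled to sum to 1000000 TPM, it stood at 217 ± 5.31 TPM, a relative spread above its counting value. Slc8a1, then at 81.2 ± 1.31 TPM, stayed below its own. For Atp2b1, Atp2b2 and Atp2b4 the observed coefficient was 17.5, 15.8 and 12.5 times the counting value, and for Atp1b1 and Atp2a2 it was 16.7 and 14.8 times. For Atp1b3 it was 2.70 times. Reads amplified by PCR are not independent molecules, so these counting values are lower limits. The summed neuronal markers stood at 102%, 105% and 93.1% of their own mean in libraries 1, 2 and 3, and the astrocyte markers at 91.3%, 95.6% and 113%. The oligodendrocyte-lineage markers stood at 99.4%, 75.8% and 125%, lowest in the library where 7 of the 8 genes were highest. The microglial markers, which summed to under 2 TPM, stood at 88.4%, 137% and 74.8%. Most of that sum was Aif1, at 0.870, 1.51 and 0.700 TPM. Cx3cr1 and Csf1r were highest in library 1 and P2ry12 in library 3, so this list did not move together. Whether cell composition had a part in the spread of the pump genes was not tested.

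**Figure D4:**
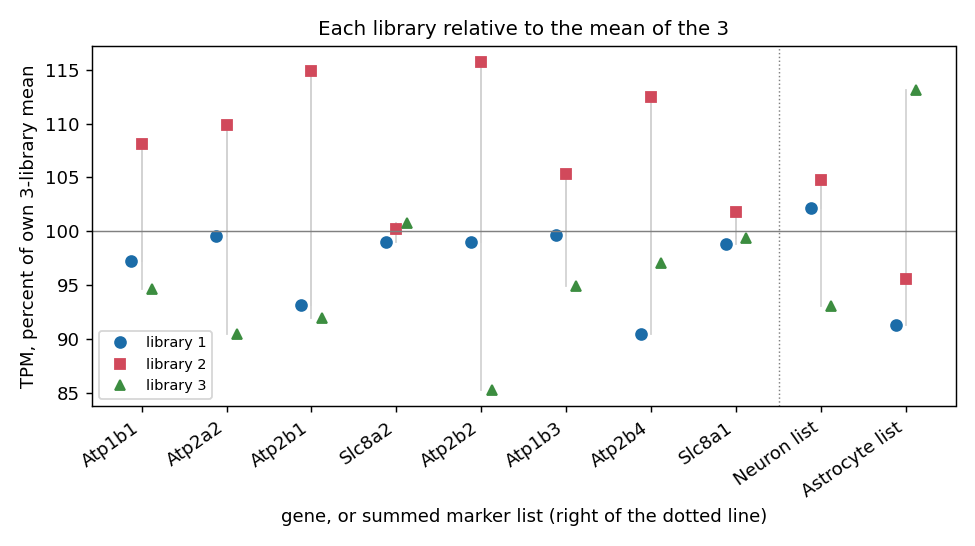
TPM of each gene in libraries 1, 2 and 3 as percent of its own mean, with the summed neuronal and astrocyte marker lists to the right of the dotted line. Library 2 is highest for 7 genes, Slc8a2 and Slc8a1 stay within 2 percentage points of 100%, and library 3 is lowest for the neuronal and highest for the astrocyte list.

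A list of 36 other genes of sodium and calcium pumping, exchange and sodium-coupled acid transport, with partner and regulator genes, gave the surroundings of the members. Of these 36 genes, 21 had a mean of at least 1 TPM, where 61.5% of protein-coding genes did. A mean of 10 TPM was reached by 12 of the 36, and by 26.4% of protein-coding genes. The list's median was 3.45 TPM, against 2.84 TPM over all protein-coding genes. Bsg and Nptn, whose products basigin and neuroplastin are partner subunits of PMCA pumps, stood at 186 ± 8.12 and 80.4 ± 8.61 TPM. Both exceeded each of the PMCA members in mean level. Their highest rows reached 296 TPM for Bsg and 317 TPM, in a non-coding model, for Nptn.

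Among small regulators of the sodium-potassium pump, Fxyd6 stood at 65.4 ± 8.67 TPM and Fxyd7 at 14.7 ± 4.85 TPM. The muscle regulators of SERCA, named here after their values were seen, were scarce, with Pln at 0.00897 ± 0.00932 TPM and Sln at 0.458 ± 0.260 TPM. The other SERCA genes, Atp2a1 and Atp2a3, had means of 0.0165 ± 0.0132 and 0.0144 ± 0.00932 TPM, so Atp2a2 was the 1 SERCA gene above 1 TPM. Atp2c1, a calcium and manganese pump of the Golgi, stood at 34.7 ± 1.70 TPM, with a highest row of 67.6 TPM. Slc24a3, a potassium-dependent sodium-calcium exchanger, stood at 19.0 ± 1.23 TPM, between Slc8a2 and Slc8a1. Slc4a10, a sodium-driven bicarbonate transporter of neurons, stood at 29.3 ± 2.51 TPM.

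The protein-coding genes closest in level to Atp1b1 in all 3 libraries were Gap43, Serinc1 and Calm3. Their largest difference from Atp1b1 in any library was 0.09, 0.10 and 0.11 on the log2(TPM + 1) scale. For Slc8a2 they were Kctd13, Smarcc2 and Copa, with largest differences of 0.02, 0.03 and 0.04. Likeness here is over 3 libraries of 1 group and says nothing beyond level.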

How the data were processed

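Poly-A RNA was sequenced in 3 libraries of 1 group with a strand-specific kit, per the labels' protocols. The authors deposited TPM per transcript row and library, and each library sums to 1000000 TPM over 84660 rows, per the file headers and values. Trimmomatic, TopHat, HTSeq, Bowtie and mm10 are named, without role or order, per the submitters' processing notes. No source used here gives the strand setting, the treatment of reads at several places, or filters. Rows were matched without version to GENCODE M21 (83017 matched, 30 of them placed elsewhere and dropped). Reads per row were recovered: for 99.9% of 74454 rows with equal ends in M21, the product of TPM and exonic length came to an integer (tolerance 0.01) after division by a constant of the library. This was tested on simulated data for rows with equal ends in M21 and known lengths. The test does not cover members whose row length had to be inferred. For 2 members the row length was the only one giving whole reads. Members and lists were chosen with earlier results of these data known. The naming rule took all members, list genes of at least 10 TPM and paralogs of members. Of those, some list genes and paralogs are counted but not reported here by name. Fold and difference values use log2(TPM + 1). Python 3.11.15, pandas 2.3.3, numpy 2.4.6 and Biopython 1.88 were used. Alternatives were the highest row, the longest coding sequence, a pseudocount of 0.1, rescaling, other limits and leaving out each library.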

Additional observations from a re-analysis of the deposited data

How the results depend on the processing

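The means of the 7 gene pair differences kept their sign in all 49 alternatives, as did those of the other neighbours in the order in 34 of 35. The exception was Atp1b3 against Atp2b4, which was 0.35 and became -0.15 on the log2(TPM + 1) scale with the highest row, where Atp2b4 stood at 32.2 TPM and Atp1b1 at 706 TPM. The 3624 further bases of the longest Atp2b4 row had added between 120 and 150 reads per library. Rescaling made the chosen rows of nuclear protein-coding genes, 1 per gene, sum to 1000000 TPM. It raised the median log2 level of genes of at least 1 TPM by 2.12, and the members to 2163 (Atp1b1), 525 (Atp2a2), 268 (Atp2b1), 217 (Slc8a2), 158 (Atp2b2), 138 (Atp1b3), 107 (Atp2b4) and 81.2 TPM (Slc8a1). All other rows, including those that share reads with a chosen row, were left out of that sum. The rise is thus no measure of the share of nuclear protein-coding genes in a library. Rescaling left the order of the members as it was but changed their spread. Slc8a2, at 217 ± 5.31 TPM, then varied more than counting error. Atp1b3, at 138 ± 4.81 TPM, then also had a coefficient of variation below 5%. Of the members 8 stayed above 10 TPM in each alternative, and 7 reached a limit of 20 TPM. The list of 36 genes had 21 to 25 at the detection limit. Without 1 library the difference between Atp2b2 and Atp2b4 lay between 0.47 and 0.63. With the highest row it fell to 0.04 (exact sign-flip permutation p = 0.75). In library 3 Atp2b4 was then the higher gene, at 31.2 TPM against 28.3 TPM for Atp2b2. Over genes of at least 1 TPM, 42.9% reached 10 TPM. With 2 libraries no p below 0.5 is possible. No paired analysis was possible because no other group shares the replicate numbers, and the gene differences are already taken within each library.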

Other observations

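The row of the microRNA gene Mir6903, of 88 bases, lies on the strand of Atp2b4 and shares 6 bases with its exons. It stood at 30.2, 32.3 and 22.4 TPM, which is 136, 123 and 90 reads. Since the row lies inside Atp2b4, its reads cannot be told apart here from reads of Atp2b4 transcripts. They are thus no measure of the microRNA.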
